A study of Mus musculus with 12 samples.

Results

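Genes that carry or make heme, 9 in all, were followed across the mouse heart libraries of this study. They are the alpha-globin genes Hba-a1 and Hba-a2, the beta-globin genes Hbb-bs and Hbb-bt, the erythroid enzyme gene Alas2, the enzyme genes Alas1, Alad and Fech, and the myoglobin gene Mb. They were chosen by symbol from the 38293 genes counted. The globins and Alas2, 5 genes, stand for RNA brought by blood, and 4 (Alas1, Alad, Fech and Mb) for heme made and used in the heart muscle.

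Heme is an iron-containing ring that binds oxygen in haemoglobin and myoglobin and carries electrons in the cytochromes of mitochondria. Its synthesis starts with 5-aminolevulinate synthase, encoded by Alas1 in most tissues and by Alas2 in red cell precursors, goes on with Alad, which joins aminolevulinate into porphobilinogen, and ends with Fech, which puts iron into the ring. Red cells lose their nuclei but young ones keep globin mRNA, so globin RNA in a tissue sample comes mostly with its blood. Myoglobin is the oxygen-binding protein of muscle and is abundant in cardiomyocytes.

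RNA came from the left ventricle of C57BL/6J mice aged 8 to 9 weeks in 4 groups of 3 animals. WT sham hearts had surgery without ischaemia. WT IR hearts had ischaemia-reperfusion by temporary ligation of the left anterior descending coronary artery and were taken 14 days later. Zeb2 WT IR and Zeb2 cTg IR mice were wild-type littermates and mice labelled as ZEB2 overexpressing (αMHC-Cre, R26-lslZeb2/lslZeb2, with Cre driven by the Myh6 promoter of cardiomyocytes), and both had the same injury and interval. The descriptions disagree on the area sampled (the remote zone, or infarct plus border zone) and on the library kit (mRNA or total RNA), and do not settle the sex of the mice. The first 2 groups were deposited in one count table and the last 2 in another, and each table was normalised on its own, so CPM (counts scaled to a common library size) is compared only within a table. Library totals lay between 20215781 and 36816818 counts, of which 60.6% to 73.5% came from the mitochondrial genome.

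The Zeb2 gene itself was measured first as a check of the labels. It stood at 54.7, 57.8 and 67.0 CPM in Zeb2 WT IR and at 55.5, 56.9 and 58.7 CPM in the libraries labelled Zeb2 cTg IR, a log2 fold change of -0.07 ± 0.12 (SE; edgeR quasi-likelihood test, adjusted p = 0.75). Zeb2 RNA was thus not detectably higher in the transgenic libraries, and they are called by their label. The paper itself reports raised Zeb2 mRNA by qPCR and raised ZEB2 protein in Zeb2 cTg hearts 14 days after surgery. Cardiomyocyte markers summed to 51634 to 77589 CPM in each library and 8 skeletal muscle markers to at most 3.10 CPM, so the tissue carried the markers of heart muscle. Fibroblast markers summed to 495 to 894 CPM in WT sham, 1814 to 4535 in WT IR, 874 to 1970 in Zeb2 WT IR and 509 to 624 in Zeb2 cTg IR. The 22 cardiomyocyte markers had 6 members lower and none higher in WT IR, and 2 higher and none lower in Zeb2 cTg IR. In bulk tissue, fewer cells of a type and less RNA per cell cannot be told apart.

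The globin genes sit in clusters and are nearly identical in pairs, which bears on how their reads are assigned. On GRCm38, Hba-a1 lies at chr11:32283511-32284465 and Hba-a2 at chr11:32296489-32297298 on the plus strand, and Hbb-bs at chr7:103826534-103828096 and Hbb-bt at chr7:103812524-103813996 on the minus strand. The coding sequences of the alpha pair are 429 bases long and those of the beta pair 444, and within each pair they differ at 1 base. The stretch of each coding sequence around that base, in GENCODE M21 transcripts, is shown because it is all that tells the coding parts apart, with the differing base in capitals. The alpha stretch lies in the last exon at chr11:32284313-32284372 and chr11:32297130-32297189, and the beta stretch, which ends with the stop codon, at chr7:103826665-103826724 and chr7:103812656-103812715.
Hba-a1: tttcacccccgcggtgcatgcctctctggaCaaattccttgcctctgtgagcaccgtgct
Hba-a2: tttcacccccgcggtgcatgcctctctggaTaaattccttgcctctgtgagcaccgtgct
Hbb-bs: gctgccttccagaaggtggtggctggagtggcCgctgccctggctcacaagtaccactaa
Hbb-bt: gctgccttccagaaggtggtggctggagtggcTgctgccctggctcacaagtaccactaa

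Of all windows of 75 bases (the read length) in the transcripts of each gene, 67.9% in Hba-a1, 84.6% in Hba-a2, 51.5% in Hbb-bs and 56.6% in Hbb-bt also occur in the partner gene. Reads from these windows cannot be given to one gene, and how the counting treated them is not given in the sources used here. The split within a pair is therefore uncertain, and sums of the pair are given too. If such reads were left out of the counts, the sums are too low as well and rest on the remaining windows. Alas2, Alas1, Alad and Mb shared no such window with any other gene, and Fech 0.728%. The annotated spans of Alas2 (chrX:150547375-150570638), Alas1 (chr9:106233455-106248654) and Mb (chr15:77015487-77050670) overlap genes on the opposite strand, among them Apex2, 4930500F10Rik and Apol6. The reads were strand-specific, but whether the counting used the strand is not stated. Alad lies at chr4:62509169-62519918 and overlaps no other annotated gene.

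The windows before the start of an alpha-globin gene and of Mb are shown for contrast between the blood and the muscle gene, as RefSeq gives them on GRCm38.p6, each cut where an annotated exon begins. RefSeq has 3 windows for Mb, and the one shown belongs to an inner start: it lies within the annotated span of Mb, in an intron of the longer transcripts and directly before the first exon of a shorter one. No CCAC box was found in the window at the outermost start. Capitals mark, in order, the CCAAT box, the CACCC box and a TATA-like run in Hba-a2 (chr11:32296392-32296488) and the CCAC box in Mb (chr15:77022788-77022887).
Hba-a2: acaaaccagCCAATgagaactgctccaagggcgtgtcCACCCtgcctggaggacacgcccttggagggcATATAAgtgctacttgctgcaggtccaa
Mb: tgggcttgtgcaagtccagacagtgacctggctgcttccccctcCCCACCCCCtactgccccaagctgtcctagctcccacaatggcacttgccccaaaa

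On either strand, the letters CCAAT occur in 37.4% of 32851 promoter windows of 300 bases. The CACCC box, searched by those letters, occurs in 57.5%. The TATA-like run was searched as ATATAA and occurs in 9.82%, and the CCAC box as CCCACCCCC in 4.77%, which holds the CACCC box within it and was also found in the window of Alas2. The E-box CACCTG, which ZEB2 is known to bind, occurs in 20.2% of the windows, and among the windows of the members other than Fech, which was not searched, a match was found in 1 window of Alas1. GATAAG, a form of the letters bound by erythroid GATA factors, occurs in 7.44% of all windows. It was found in the window of each of the 4 globin genes but in none of Alas2, Alas1, Alad and Mb. Other forms were not searched, so a window without GATAAG may still hold a GATA site. The 300-base windows of Hba-a1 and Hba-a2 share an unbroken run of 297 bases, and those of Hbb-bs and Hbb-bt a run of at most 14. These matches describe letters only.

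How abundant the members were differed by orders of magnitude. Per kilobase of merged exon length, in WT sham, Mb stood at 1906 ± 39.4 CPM per kilobase (SD, n = 3), Hbb-bs at 103 ± 26.9, Hbb-bt at 17.8 ± 5.62 and Hba-a1 at 17.6 ± 4.77. Alas1 followed at 13.5 ± 0.951 and Hba-a2 at 12.7 ± 2.92. Alad at 5.20 ± 0.290, Fech at 3.87 ± 0.194 and Alas2 at 2.26 ± 0.489 were lowest. Hbb-bt, Hba-a1, Alas1 and Hba-a2 lay within each other's spread, and the order of Alas1 among them depends on the length used, since Alas1 stood at 24.5 CPM per kilobase on the length of its longest transcript. On that length Fech, at 8.15 CPM per kilobase, also stood above Alad, at 5.50. The 4 globin genes together took 0.0160% to 0.0405% of the counts outside the mitochondrial genome, so counted globin RNA was a small part of every library. Reads in windows shared within a globin pair may be missing from these counts, so globin levels and shares may be too low. No count was found in any library for the 7 embryonic and theta-type globin genes listed.

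**Figure D1:**
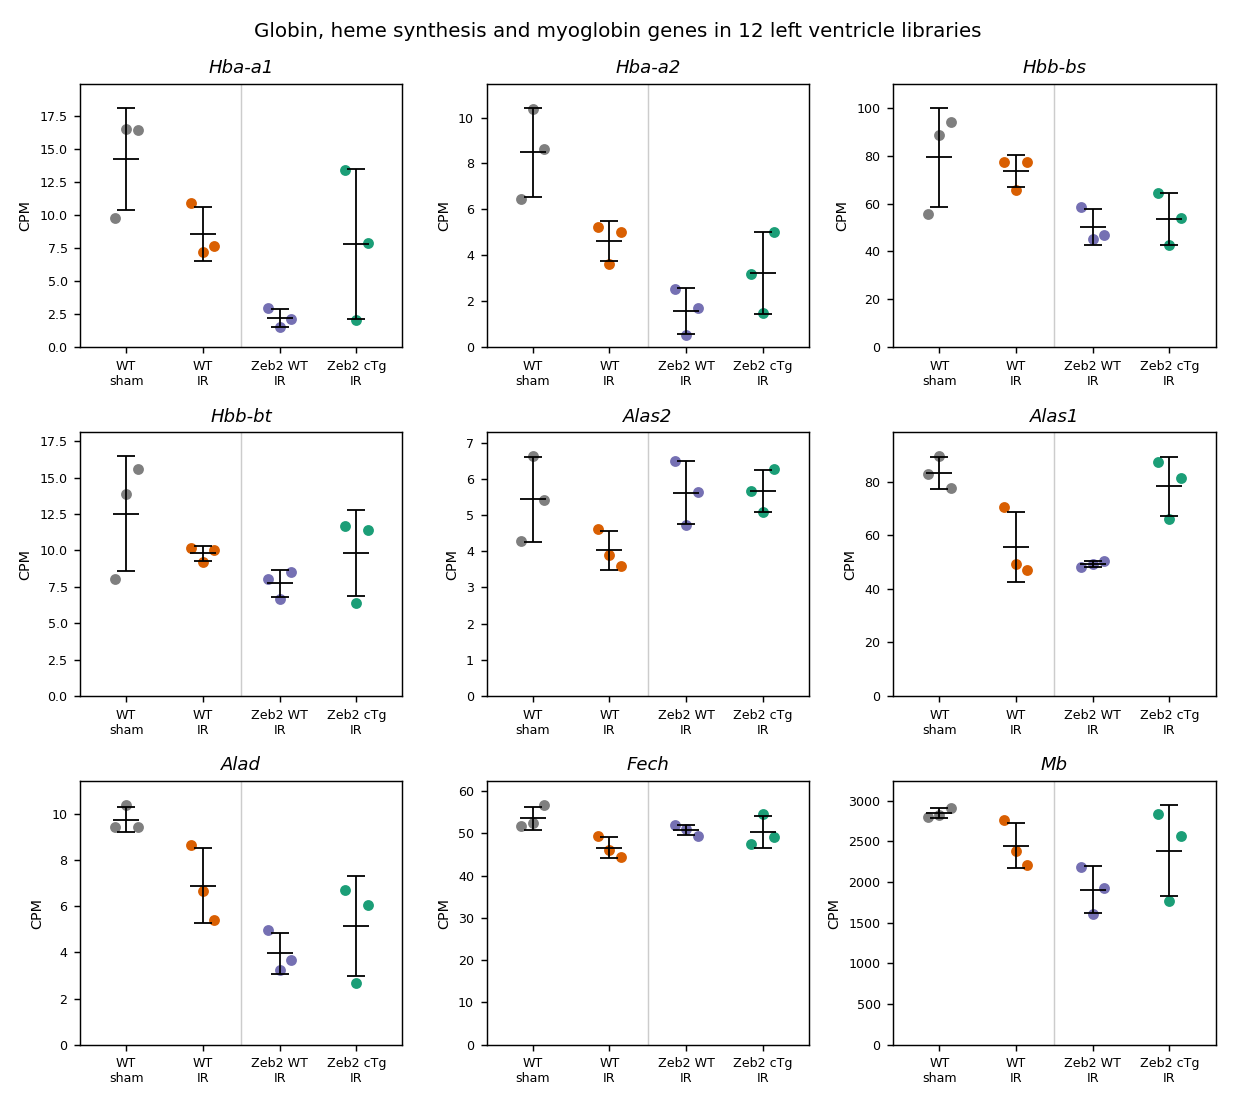
CPM of the 9 genes in each of the 12 libraries (points), with the mean and SD of each group of 3 (bars); the grey line separates the tables, which were normalised separately. Alas1 was at 77.7 to 89.4 CPM in WT sham and 46.9 to 70.5 in WT IR, and at 48.2 to 50.2 in Zeb2 WT IR and 66.1 to 87.5 in Zeb2 cTg IR.

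The first comparison asks what changed in wild-type hearts 14 days after injury. All 9 genes had estimates below 0, and 4 passed the test. Hba-a1, Hba-a2, Alas1 and Alad were lower in WT IR. Over all 13756 genes tested, 20.8% passed at an adjusted p under 0.05, 11% higher and 9.74% lower, and the median log2 fold change of the 9 members was -0.44 beside 0.01 over all genes. The groups did not overlap for 5 of the 9, beside 39.8% of all genes.

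Alas1, the first and rate-limiting enzyme of heme synthesis in most cells, stood at 82.8, 89.4 and 77.7 CPM in WT sham and 70.5, 49.2 and 46.9 CPM in WT IR. Each injured heart was below each sham heart. The fold was 0.666 (log2 fold change -0.59 ± 0.14, SE; adjusted p = 0.022). Alad, the second enzyme, stood at 9.42, 10.4 and 9.43 CPM in WT sham and 8.62, 6.64 and 5.41 CPM in WT IR. Again the groups did not overlap, with a fold of 0.708 (log2 fold change -0.50 ± 0.15, adjusted p = 0.048). Fech, the last enzyme, was 53.6 ± 2.68 CPM in WT sham and 46.6 ± 2.49 in WT IR, also without overlap. Its change was smaller and missed the threshold (log2 fold change -0.20 ± 0.08, adjusted p = 0.094). Mb was at 2801, 2819 and 2911 CPM in sham hearts and 2756, 2383 and 2203 CPM after injury, without overlap, but its log2 fold change of -0.22 ± 0.13 did not pass (adjusted p = 0.27).

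Scaling on the 22 cardiomyocyte markers in place of all genes moved the median of all genes by 0.31 on the log2 scale in this comparison. On that scale Alas1 remained lower (log2 fold change -0.30, adjusted p = 0.049), the Alad estimate shrank to -0.21 and lost its call (adjusted p = 0.25), and the Mb, Fech and Hbb-bs estimates turned above 0. Alas1 was lower beyond the threshold in each of 13 other settings, but in only 2 of the 6 fits that left out one library (adjusted p up to 0.11, the highest without WT sham replicate 2). Alad passed in 8 of 13 other settings and in 1 of the 6 such fits, that without WT IR replicate 1, the injured library closest to sham for both genes. Fech passed in 2 of 13 other settings and in 1 of the 6 fits without one library.

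All 5 blood genes had estimates below 0 in WT IR, and the alpha-globin pair passed the test. Hba-a1 stood at 9.80, 16.5 and 16.5 CPM in WT sham and 10.9, 7.17 and 7.68 CPM in WT IR, so that the first sham library lay among the injured ones. Its fold was 0.604 (log2 fold change -0.73 ± 0.22, adjusted p = 0.041). Hba-a2 stood at 6.47, 10.4 and 8.61 CPM in sham and 5.22, 3.62 and 5.03 CPM after injury, with no overlap and a fold of 0.541 (log2 fold change -0.89 ± 0.19; adjusted p = 0.014). Summed, the alpha-globin pair fell by 0.78 on the log2 scale (adjusted p = 0.022). Hba-a1 passed in 6 of 12 other settings and 2 of 6 fits without one library, and Hba-a2 in 11 of 12 and 4 of 6. The beta-globin genes and Alas2 did not pass. Hbb-bs was at 55.8, 88.5 and 93.9 CPM in sham and 77.2, 65.8 and 77.5 CPM after injury (log2 fold change -0.11 ± 0.17; adjusted p = 0.68), and the injured hearts lay within the range of the sham hearts. Hbb-bt was 12.5 ± 3.95 and 9.79 ± 0.532 CPM (adjusted p = 0.24), and Alas2 5.44 ± 1.17 and 4.03 ± 0.537 CPM (adjusted p = 0.10).

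Because the split within pairs is uncertain, the alpha and beta sums were set against each other within each library. The ratio of alpha-globin to beta-globin counts was 0.249 ± 0.0176 (SD, n = 3) in WT sham and 0.158 ± 0.0232 in WT IR, and the ranges did not overlap (0.229 to 0.263 against 0.144 to 0.185). It was 0.0636 ± 0.0215 in Zeb2 WT IR and 0.163 ± 0.0791 in Zeb2 cTg IR, with overlap (0.0399 to 0.0819 against 0.0723 to 0.219). Alas2 counts per 1000 beta-globin counts were 60.4 ± 9.55 in WT sham, 48.6 ± 6.65 in WT IR, 96.8 ± 4.90 in Zeb2 WT IR and 74.5 to 103 in the 3 libraries of Zeb2 cTg IR. These ratios carry no normalisation between libraries, and no test was run on them. They rest on whichever reads of each pair were counted. GC content (the share of G and C bases) was 57.2% in the longest transcript of Hba-a1 and 56.9% in that of Hba-a2. It was 51.3% for Hbb-bs and 50.8% for Hbb-bt. The ratios were not corrected for GC content, and its part in them was not tested. Hbb-bs made up 82.5% to 88.5% of the beta-globin counts in the 12 libraries.

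**Figure D2:**
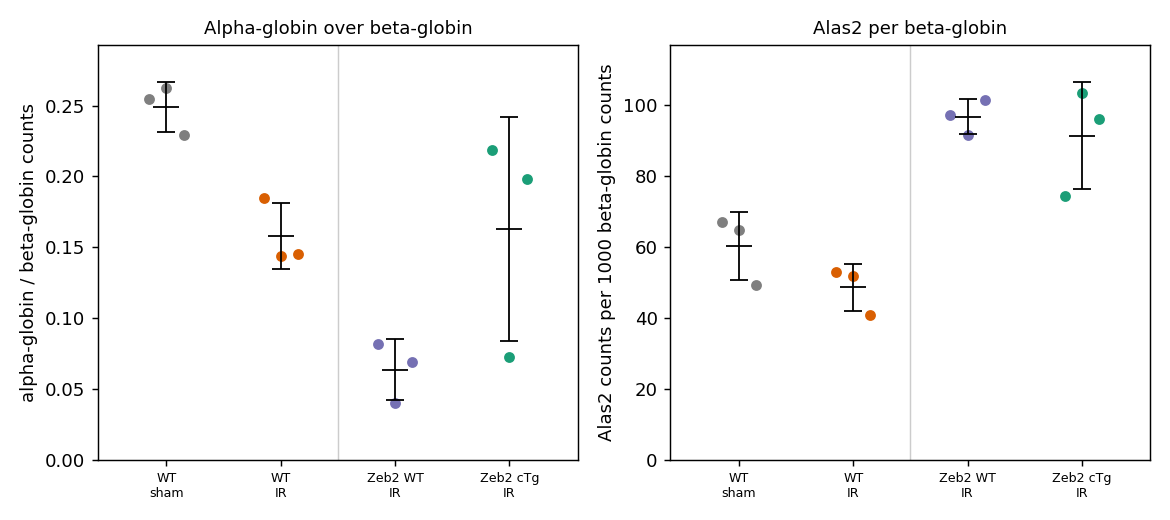
Left, alpha-globin over beta-globin counts within each library; right, Alas2 counts per 1000 beta-globin counts; points are libraries, bars the mean and SD of 3. The alpha to beta ratio lay at 0.229 to 0.263 in WT sham, above the 0.144 to 0.185 of WT IR, and 1 of the 3 Zeb2 cTg IR libraries lay in the range of Zeb2 WT IR.

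Red cell markers gave little to set beside the globins. Of 30 listed, 15 were tested in the wild-type table, with 1 higher and 2 lower in WT IR and a median log2 fold change of -0.02 beside 0.01 over all genes. Their sum was 193 to 208 CPM in WT sham and 154 to 187 CPM in WT IR, but Bnip3l, a mitophagy receptor that rose, and Sptb, a spectrin that fell together with Tmcc2, are also made outside red cells. Genes that define the lineage were near 0. Slc4a1, the anion exchanger of the red cell membrane, had 8 to 14 counts per library in WT sham and 1 to 6 in WT IR, and Klf1, a transcription factor of red cell precursors, 0 to 1 and 0. Their part in the alpha-globin difference was not tested. Macrophage markers rose in 8 of 8 and fibroblast markers in 7 of 8 in the same libraries, and their part in the lower Alas1 and Alad was not tested either.

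The second comparison asks how the hearts labelled Zeb2 cTg IR differed from littermates after the same injury. Alas1 alone among the 9 passed, and it was higher. Over all 13018 genes tested, 3.64% passed, 2.14% higher and 1.51% lower. The estimates of 8 of the 9 lay above 0, with a median log2 fold change of 0.34 beside 0.01 over all genes, and the groups did not overlap for 1 of the 9, beside 26.2% of all genes.

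Alas1 stood at 48.2, 49.3 and 50.2 CPM in Zeb2 WT IR and 87.5, 66.1 and 81.2 CPM in Zeb2 cTg IR. The littermates were almost equal and every transgenic-labelled heart lay above them. The fold was 1.59 (log2 fold change 0.67 ± 0.13; adjusted p = 0.028). Alad stood at 4.95, 3.24 and 3.66 CPM and at 6.71, 2.67 and 6.07 CPM, with replicate 2 of Zeb2 cTg IR below all littermates, and did not pass (adjusted p = 0.48). Fech was 50.8 ± 1.22 and 50.3 ± 3.74 CPM (log2 fold change -0.01 ± 0.11; adjusted p = 0.96), nearly equal means. Mb was at 2188, 1603 and 1925 CPM in Zeb2 WT IR and at 2834, 1761 and 2559 CPM in Zeb2 cTg IR, and overlapped (log2 fold change 0.32 ± 0.20, adjusted p = 0.34).

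Alas1 lost the threshold on cardiomyocyte-marker scaling, which moved the median of all genes by -0.19 (log2 fold change 0.45, adjusted p = 0.17), and with a replicate block and a GC correction together (0.48, adjusted p = 0.052). It also lost it in 5 of the 6 fits that left out one library, where its log2 fold change ranged from 0.58 to 0.77. Beside it stood 2 cardiomyocyte markers that were higher, Mybpc3 and Tnnt2, and 3 fibroblast markers that were lower, Col1a2, Col3a1 and Lum.

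The blood genes did not pass in this comparison. Hba-a1 stood at 2.93, 1.54 and 2.13 CPM (80, 38 and 64 counts) in Zeb2 WT IR and at 13.4, 2.06 and 7.86 CPM (320, 54 and 280 counts) in Zeb2 cTg IR. The fold of 3.51 was the largest among the members, but the spread was wide as well (log2 fold change 1.81 ± 0.55, adjusted p = 0.093), with replicate 2 inside the littermate range. Hba-a2 stood at 2.53, 0.526 and 1.70 CPM and at 3.19, 1.49 and 5.03 CPM, and overlapped (log2 fold change 1.03 ± 0.52, adjusted p = 0.26). Hbb-bs differed little, at 58.7, 45.0 and 47.0 CPM against 64.2, 42.7 and 53.7 CPM (log2 fold change 0.09 ± 0.17; adjusted p = 0.77). Hbb-bt was 7.74 ± 0.945 and 9.83 ± 2.96 CPM (adjusted p = 0.37), and Alas2 5.62 ± 0.878 and 5.67 ± 0.593 CPM (adjusted p = 0.97). Slc4a1 had 4 to 6 counts per library in Zeb2 WT IR and 5 to 6 in Zeb2 cTg IR, and Klf1 0 to 2 and 0 to 1. The summed level of the red cell markers was 140 to 167 CPM in Zeb2 WT IR and 177 to 212 CPM in Zeb2 cTg IR, with no overlap, and its part in the globin values was not tested.

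**Figure D3:**
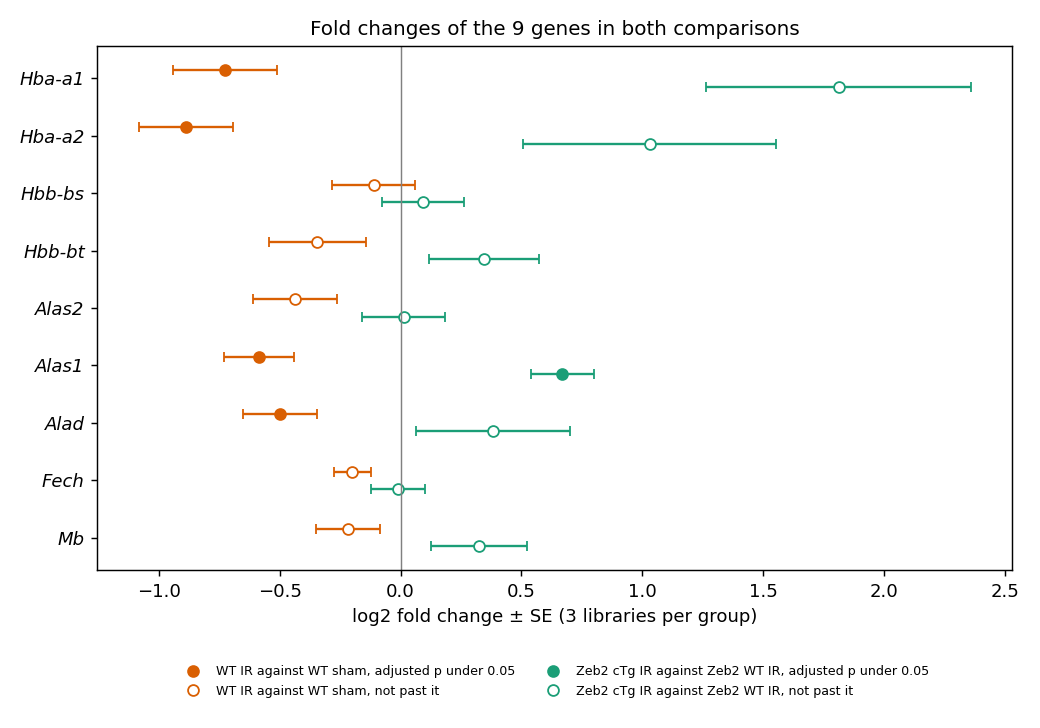
Log2 fold change ± SE of the 9 genes in WT IR against WT sham (orange) and in Zeb2 cTg IR against Zeb2 WT IR (green), 3 libraries per group; filled points passed an adjusted p of 0.05. Filled points were Hba-a1, Hba-a2, Alas1 and Alad (all below 0) in the first and Alas1 alone (0.67) in the second.

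Whether the members moved differently in the 2 comparisons was tested in one fit over all 12 libraries, with each comparison measured within its own table. In this test 3 members passed, all with a higher value in the Zeb2 comparison. Over the 14151 genes tested, 23% passed, 12.4% higher and 10.6% lower. The difference was 1.27 ± 0.21 on the log2 scale for Alas1 (adjusted p = 0.0017), 2.55 ± 0.65 for Hba-a1 (adjusted p = 0.014) and 1.93 ± 0.59 for Hba-a2 (adjusted p = 0.032). Alas1 and Hba-a1 passed in all 11 other settings and in all 12 fits without one library, while Hba-a2 passed in 10 of 11 and 5 of 12. Alad (0.89 ± 0.38, adjusted p = 0.10), Mb (0.55 ± 0.25, adjusted p = 0.12), Fech, Hbb-bs, Hbb-bt and Alas2 did not pass. The cardiomyocyte markers had 9 of 22 higher and none lower in this test, and the fibroblast markers 7 of 8 lower, and their part in the difference was not tested.

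The rest of the heme pathway was read from 13 genes. They cover the other enzymes, proteins of mitochondrial membrane transport, and further proteins linked to heme, such as Pgrmc1. In WT IR, 4 fell and 1 rose, with a median of -0.22 beside 0.01 over all genes, of which 9.74% were lower and 11% higher. Abcb10 (log2 fold change -0.42 ± 0.08, adjusted p = 0.011) and Slc25a39 (-0.41 ± 0.09, adjusted p = 0.018) are proteins of the inner mitochondrial membrane, Slc25a38 (-0.41 ± 0.13, adjusted p = 0.047) carries glycine for the first step, and Abcb6 (-0.48 ± 0.14, adjusted p = 0.037) transports porphyrins. Pgrmc1, a heme-binding membrane protein, rose by 0.59 ± 0.14 (adjusted p = 0.018). In the Zeb2 comparison Cpox alone of the 13 passed and fell. Cpox, the enzyme coproporphyrinogen oxidase of a late step, was at 14.7, 16.6 and 15.3 CPM in Zeb2 WT IR and 9.18, 9.77 and 8.51 CPM in Zeb2 cTg IR, with no overlap and a fold of 0.589 (log2 fold change -0.76 ± 0.13; adjusted p = 0.015). The enzymes of the pathway thus did not move in one direction in that comparison, with Alas1 higher and Cpox lower. Uros, Urod and Ppox, enzymes of intermediate steps, passed in neither comparison, with log2 fold changes from -0.16 to 0.21 in the first and 0.02 to 0.58 in the second.

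**Figure D4:**
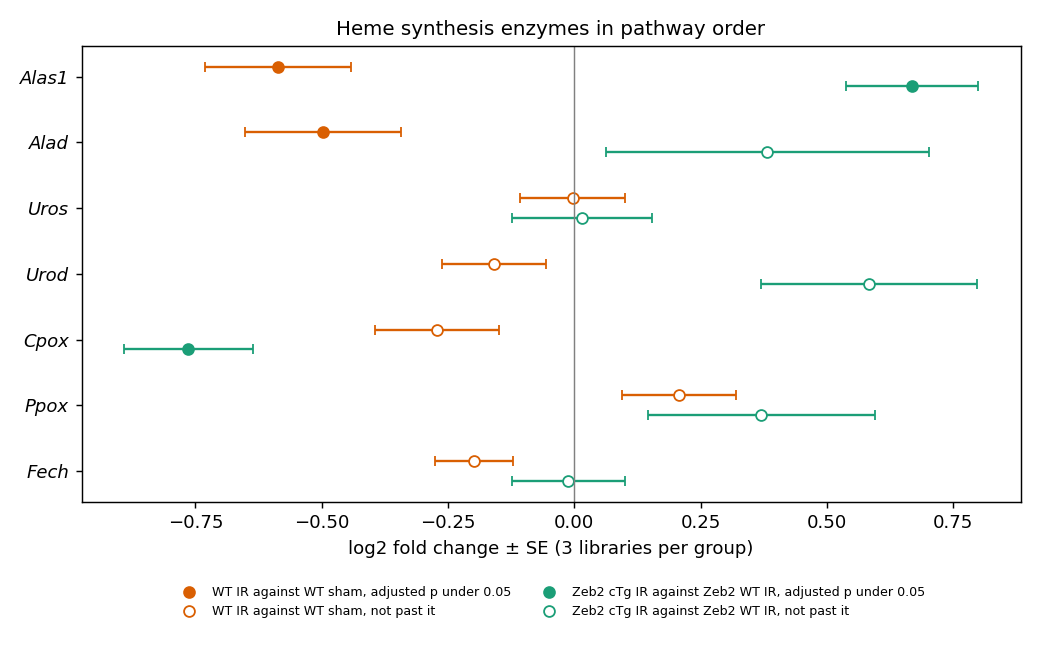
Log2 fold change ± SE of 7 enzymes of heme synthesis, from the first step (top) to the last (bottom), in both comparisons; filled points passed an adjusted p of 0.05. In the Zeb2 comparison Alas1 lies at 0.67 and Cpox at -0.76, on opposite sides of 0.

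Genes of heme breakdown and transport had 4 of 12 tested higher in WT IR and none lower (median 0.08), beside 11% and 9.74% of all genes. Hmox1, the heme oxygenase induced by stress, rose by 0.94 ± 0.23 (adjusted p = 0.022) from 1.80 ± 0.209 to 3.43 ± 0.965 CPM, and Blvra, which turns the resulting biliverdin into bilirubin, by 0.43 ± 0.12 (adjusted p = 0.038). Lrp1, the receptor that takes up heme bound to hemopexin, rose by 0.86 ± 0.17 (adjusted p = 0.011), and Abcg2, a porphyrin exporter, by 0.38 ± 0.09 (adjusted p = 0.018). Lrp1 is also made by fibroblasts and macrophages. In the Zeb2 comparison Cd163, the macrophage receptor for haemoglobin bound to haptoglobin, was the only one of 12 to pass, at 2.35, 2.27 and 2.53 CPM in Zeb2 WT IR and 6.79, 10.8 and 4.66 CPM in Zeb2 cTg IR (log2 fold change 1.63 ± 0.29, adjusted p = 0.020). The other macrophage genes listed as markers had 0 of 8 pass there.

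Iron genes had 3 of 19 tested higher and 2 lower in WT IR and none in the Zeb2 comparison, beside 20.8% and 3.64% of all genes called, so neither count stands apart from the background. Ftl1, the light chain of the iron store ferritin, rose by 0.86 ± 0.16 (adjusted p = 0.0094), Trf, the plasma iron carrier transferrin, by 1.12 ± 0.25 (adjusted p = 0.015) and Cp, the copper oxidase ceruloplasmin, by 0.34 ± 0.10 (adjusted p = 0.038). Pcbp1, an iron chaperone, changed by -0.34 ± 0.08 (adjusted p = 0.021) and Nfs1, which supplies sulphur for iron-sulphur clusters, by -0.33 ± 0.10 (adjusted p = 0.044). Of 13 genes tested for other heme proteins and their partner proteins, 5 were higher and 2 lower in WT IR, beside 11% and 9.74% of all genes. The 13 include Uqcrfs1 and Por, which carry no heme, and Uqcrfs1 was among the lower genes (-0.36 ± 0.11, adjusted p = 0.041). Gucy1b1 (older symbol Gucy1b3), the heme subunit of the nitric oxide receptor, rose by 0.81 ± 0.11 (adjusted p = 0.0038), Cygb, the globin cytoglobin of fibroblasts, by 1.23 ± 0.20 (adjusted p = 0.0060) and Ptgis, prostacyclin synthase, by 1.65 ± 0.32 (adjusted p = 0.010). Cyc1, cytochrome c1 of respiratory complex III, changed by -0.49 ± 0.11 (adjusted p = 0.017). Cyp2j6, a cytochrome P450, rose in WT IR (log2 fold change 0.55 ± 0.15, adjusted p = 0.032) and was lower in Zeb2 cTg IR (-0.94 ± 0.17, adjusted p = 0.020).

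Genes listed as regulators of Alas1 or Mb were transcription factors and other proteins, such as Lonp1, Ppp3ca, Ppp3cb and Rcan1. Their counts in WT IR do not stand apart from the 20.8% of all genes that passed. Of 9 regulators of Alas1 tested in WT IR, 1 passed, Nr1d2, a heme-binding clock repressor, which rose by 0.59 ± 0.13 (adjusted p = 0.015). Of 14 regulators of Mb and muscle metabolism, Esrra, an activator of mitochondrial genes, was lower (-0.82 ± 0.15, adjusted p = 0.0080) and Hif1a, the oxygen-sensing factor, higher (0.51 ± 0.11, adjusted p = 0.013). None of the 9 and none of the 14 passed in the Zeb2 comparison, where 3.64% of all genes did.

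How the members varied between hearts of one group was described by Pearson's r over the 12 libraries, after each group's mean log2 CPM was subtracted. Over these libraries Alad (r = 0.97) and Hba-a1 (r = 0.92) followed Mb closely, although Alad is an enzyme, Hba-a1 a blood gene and Mb a muscle gene. Among 11993 named genes tested in both tables, the 5 most like Mb were Hhatl (r = 0.99), Ndufa13 (r = 0.99), Gadd45gip1 (r = 0.99), Ppp6r2 (r = 0.98) and Mgrn1 (r = 0.98). The 5 most like Hbb-bs were Atp6v1f (r = 0.95), Ppm1m (r = 0.94), Cbr1 (r = 0.92), Upf3b (r = 0.91) and Alg3 (r = 0.91), and no red cell marker was among them. Among the members, the r with Hbb-bs was 0.89 for Hbb-bt, 0.79 for Hba-a1, 0.70 for Alas2 and 0.62 for Hba-a2. The muscle gene Mb (0.61) and the enzyme gene Alad (0.58) came close to Hba-a2, and Alas1 (0.32) and Fech (-0.04) were lowest. With Mb, the r was 0.77 for Hba-a2, 0.66 for Hbb-bt and 0.60 for Alas2. Hba-a1 and Hba-a2 thus had a higher r with Mb than with Hbb-bs, and Hbb-bt and Alas2 a lower one. The points share library, depth and base composition, and a correction for GC content moved the Alad estimate in the Zeb2 comparison from 0.38 to 0.03 on the log2 scale.

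**Figure D5:**
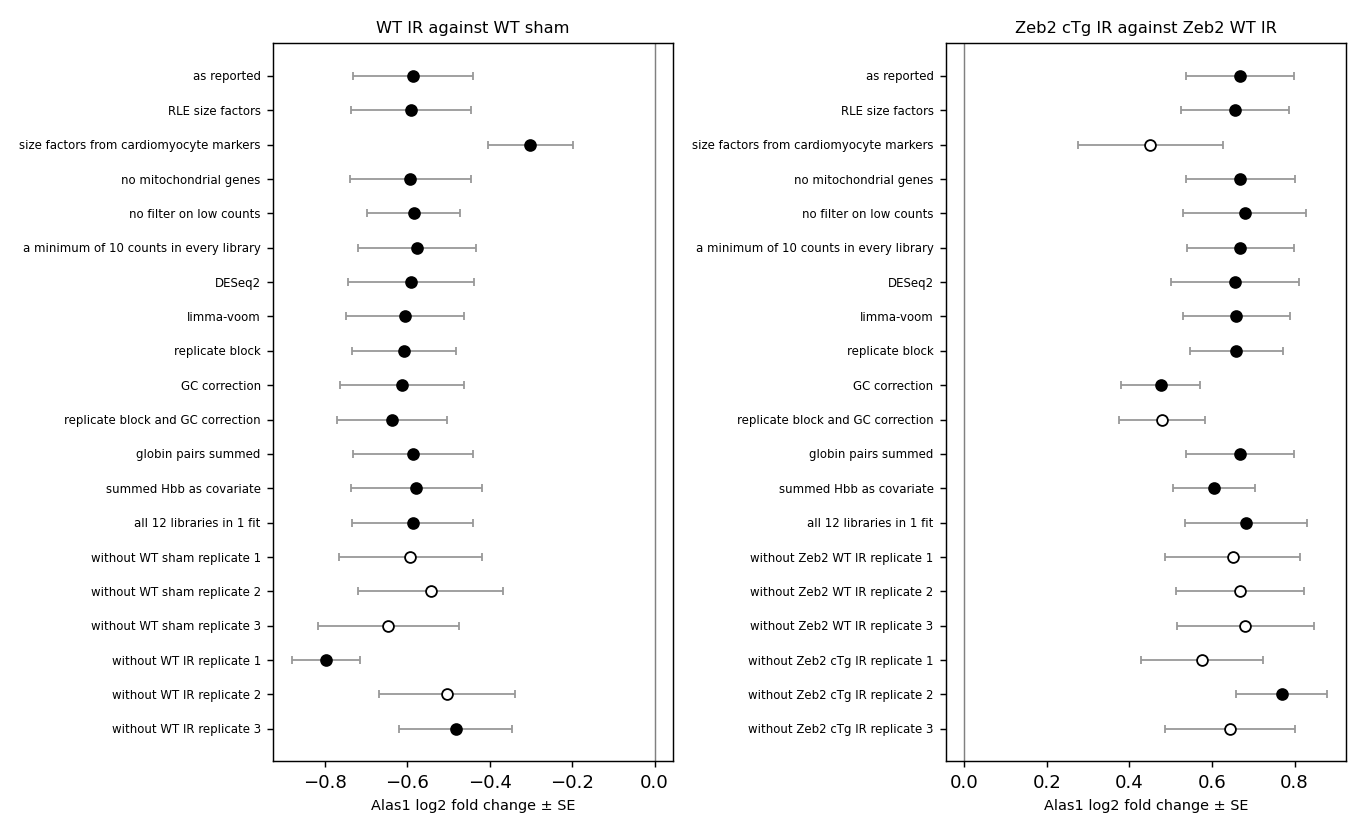
Log2 fold change ± SE of Alas1 in WT IR against WT sham (left) and Zeb2 cTg IR against Zeb2 WT IR (right) as reported, in 13 other settings and without each library in turn; filled points passed an adjusted p of 0.05. All estimates stay below 0 on the left (-0.80 to -0.30) and above 0 on the right (0.45 to 0.77), and open points are mostly fits with one library left out.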

How the data were processed

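The authors deposited 2 tables of raw counts per Ensembl gene, one for WT sham and WT IR and one for Zeb2 WT IR and Zeb2 cTg IR. Per the submitters' processing notes, reads were aligned to mm10 with STAR 2.4.2a and counted with HTSeq 0.6.1. The study's methods name GENCODE M4, strand-specific single-end reads and DESeq. Counts were used as deposited. Each comparison was fitted in its own table with edgeR 4.0.16 (R 4.3.3, TMM normalisation, filterByExpr with a minimum count of 10, quasi-likelihood test, Benjamini-Hochberg adjustment over all genes tested, threshold 0.05), without a block. A test of the difference between comparisons used all 12 libraries. All 9 members passed the filter. CPM was computed from TMM-scaled library sizes. At these depths 1 CPM stood for 17.2 to 37.8 counts. The script was tested on simulated data.

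Gene symbols, positions and lengths were taken from GENCODE M21, and promoter windows from RefSeq on GRCm38.p6. The 3 libraries of a group came from 3 animals, so p-values measure the spread between animals. Same-numbered libraries were not treated as paired, since the correlations of their deviations, between -0.042 and 0.26, exceeded 0.1 in only 2 of 6 pairs. No pair of replicates agreed within sampling noise. The members and lists were chosen with earlier results of these data known. Named beyond the members were list genes with an adjusted p under 0.05, at most 6 for each list and comparison, the 5 genes most like Hbb-bs and Mb, and Zeb2. Marker genes of other cell types were given mostly as counts. Ahsp, one of the listed red cell markers, was not matched to the tables. Results on some listed genes are not reported here. Alternatives covered scaling (RLE, cardiomyocyte markers, no mitochondrial genes), filters, DESeq2 1.42.0, limma-voom (limma 3.58.1), GC correction, a replicate block, summed globin pairs, beta-globin as a covariate, and leaving out each library.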

Additional observations from a re-analysis of the deposited data

Results flagged for a closer look

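The fold changes of 3 members differed between the comparisons by the test of the difference itself (edgeR quasi-likelihood, adjusted over 14151 genes, of which 23% passed). The difference (Zeb2 cTg IR against Zeb2 WT IR, less WT IR against WT sham) was 1.27 on the log2 scale for Alas1, higher in 3 of 3 Zeb2 cTg IR libraries than in any Zeb2 WT IR library and lower in 3 of 3 WT IR libraries than in any WT sham library. It was 2.55 for Hba-a1 and 1.93 for Hba-a2, for which 1 Zeb2 cTg IR library, replicate 2, lay within the range of Zeb2 WT IR. The alpha-globin values in the Zeb2 table rest on 13 to 320 counts per gene and library, and the split of reads between both genes is uncertain.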

How the results depend on the processing

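The number of members that passed was 4 in WT IR against WT sham, 1 in Zeb2 cTg IR against Zeb2 WT IR and 3 in the difference. Without one library these counts ranged from 0 to 7, 0 to 4 and 2 to 6. The 7 came without WT IR replicate 1, and the 4 and the 6 without Zeb2 cTg IR replicate 2. In these fits the calls over all genes rose too, from 2859 to 4980, from 474 to 2419 and from 3248 to 4958. Cardiomyocyte-marker scaling gave 2 members in the first comparison and 0 in the second, and 1 fit of all 12 libraries gave 1 and 2. Without a filter on low counts the second gave 2 and the difference 5.

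The replicate block gave 3 members in the second comparison and 5 in the difference, and with a GC correction as well 0 in the second. The labels share replicate numbers between groups, but not every same-numbered pair deviated together. The correlation of their deviations was -0.034 to 0.012 in the wild-type table, and in the Zeb2 table it was 0.13 and 0.26 for replicates 1 and 2 and -0.042 for replicate 3, so the numbers were not taken as pairs. Over all genes it called 1813 genes in the second comparison, against 474 without it.

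Estimates that changed sign were small. With cardiomyocyte-marker scaling, which moved the median of all genes by 0.31, -0.19 and -0.43, Hbb-bs, Fech and Mb came to 0.19, 0.10 and 0.077 in the first comparison, Hbb-bs and Alas2 to -0.12 and -0.20 in the second, and Hbb-bs and Fech to -0.22 and -0.22 in the difference. With the GC correction, Alas2, Fech and Zeb2 came to -0.15, 0.13 and 0.15 in the second comparison, and with GC correction and block to -0.15, 0.13 and 0.15. Fech came to 0.0094 with beta-globin as a covariate and 0.0022 in the fit of all libraries. Without one library, Hbb-bs ranged from -0.31 to 0.012 in the first comparison (above 0 without WT sham replicate 3) and from -0.064 to 0.22 in the second, where Alas2 ranged from -0.095 to 0.13, Fech from -0.080 to 0.024 and Zeb2 from -0.13 to 0.019. The cause was not tested. Calls over all genes also moved by more than 1.5 times, from 474 in the second comparison to 1096 with DESeq2, 1932 in the fit of all libraries, 1553 without a filter and 826 with GC correction, and from 2859 in the first to 1424 in the fit of all libraries. With cardiomyocyte-marker scaling 3986 genes were higher and 260 lower in the first comparison, 127 and 286 in the second and 548 and 3070 in the difference. With GC correction the splits were 1186 and 1597 in the first comparison and 1887 and 1195 in the difference. The level of each member per kilobase used the merged exon length, and on the longest transcript moved beyond 1 SD in 20 of 36 values.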
